A study of Gallus gallus with 2 samples.

Results

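Cadherins, protocadherins and catenins form the junctions that hold embryonic cells together. Here they were taken as the genes whose symbol in the expression table belongs to the CDH, PCDH, catenin (CTNNA, CTNNB, CTNND), desmosomal (DSC, DSG, DSP, PKP, JUP), FAT, DCHS or CELSR families and whose mean level in the 2 libraries was at least 1 TPM. Levels are in TPM, a relative transcript abundance that takes transcript length into account and gives each library an equal total. There were 50 such genes among the 13946 genes compared, and 2 more symbols of these families lay under the minimum.

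The libraries came from 1 chick embryo selected for overexpressing SOCS2, a suppressor of cytokine signalling. The injected group was the right wing, which had received RCAS-GFP-SOCS2, an avian retrovirus able to replicate, with GFP and SOCS2 as inserts. The uninjected group was the left wing of the same embryo, without injection. RNA was taken from whole wing tissue, labelled forelimb bud, 5 days after infection at stage HH 34 of chick development. Each group had 1 library, so no p-value, SD or standard error was computed, and injection and body side cannot be told apart. The sources used here give no strain, no share of infected cells and no wing injected with an empty virus.

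In cell adhesion, the extracellular repeats of classical cadherins on neighbouring cells bind each other with calcium, and their cytoplasmic tails bind beta-catenin or plakoglobin, which recruit alpha-catenin and through it the actin cytoskeleton. Catenins of the p120 group bind nearer the membrane and keep cadherins at the cell surface, and beta-catenin also acts with TCF and LEF factors as the transcriptional effector of WNT signalling. Desmosomes use related cadherins, tied by plakoglobin, plakophilins and desmoplakin to keratin filaments. Protocadherins adhere more weakly and sort neurons and mesenchymal cells, while the giant FAT and CELSR cadherins carry planar polarity signals between cells. In the limb, N-cadherin and cadherin-11 are known from condensing and loose mesenchyme, E-cadherin from the ectoderm, M-cadherin from muscle and VE-cadherin from blood vessels.

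SOCS2 (ENSGALG00000050619) stood at 54.2 TPM uninjected and 254 TPM injected, 4.70-fold higher in TPM, which is the direction the label gives. For every gene the difference between wings is given as a log2 ratio, log2(TPM + 0.1) in the injected minus the same in the uninjected wing. A difference beyond 1.5-fold (0.585 on the log2 scale) was called higher or lower, which is a rule of size without a test. The depth of the libraries is unknown, so no counting interval could be given. Over all genes compared, ratios had a median of −0.04, with a 5th percentile of −0.57 and a 95th of 0.40. The limb mesenchyme markers PRRX1, TWIST1, PDGFRA, MEOX2 and TBX5 were all present, as the labelled tissue calls for, with a summed level of 986 TPM uninjected and 992 TPM injected. The most abundant of them, MEOX2, was at 274 and 303 TPM, and PDGFRA at 248 and 217 TPM.

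Few adhesion genes differed by more than 1.5-fold between wings, and those were weakly expressed. Of the 50 genes, 3 were called lower in the injected wing: FAT2, PCDH8 and PCDH9. None was called higher, and 47 lay within 1.5-fold on the log2(TPM + 0.1) scale. Over all genes compared, 4.79% were called lower and 2.23% higher, so 3 of 50 (6%) was near the background. Of the 50 genes, 32 (64%) lay within 1.2-fold, a limit chosen after the values were seen, against 74.3% of all genes. The median log2 ratio of the 50 genes was −0.12, against −0.04 over all genes, and 37 of the 50 (74.0%) lay below 0, against 59.7% of all genes. In bulk tissue, fewer cells of a type and less RNA per cell cannot be told apart.

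The summed level of the 50 genes was 4785 TPM uninjected and 4248 TPM injected, or 0.479% and 0.425% of all TPM. The difference of 537 TPM came mostly from a pair of abundant genes: CTNNB1 and CDH11 together made up 353 TPM of it, or 65.7%. These genes also held 1491 and 814 TPM of the 4785 TPM uninjected, so much of that share follows from their level. Their own ratios were modest, at −0.25 and −0.23.

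**Figure D1:**
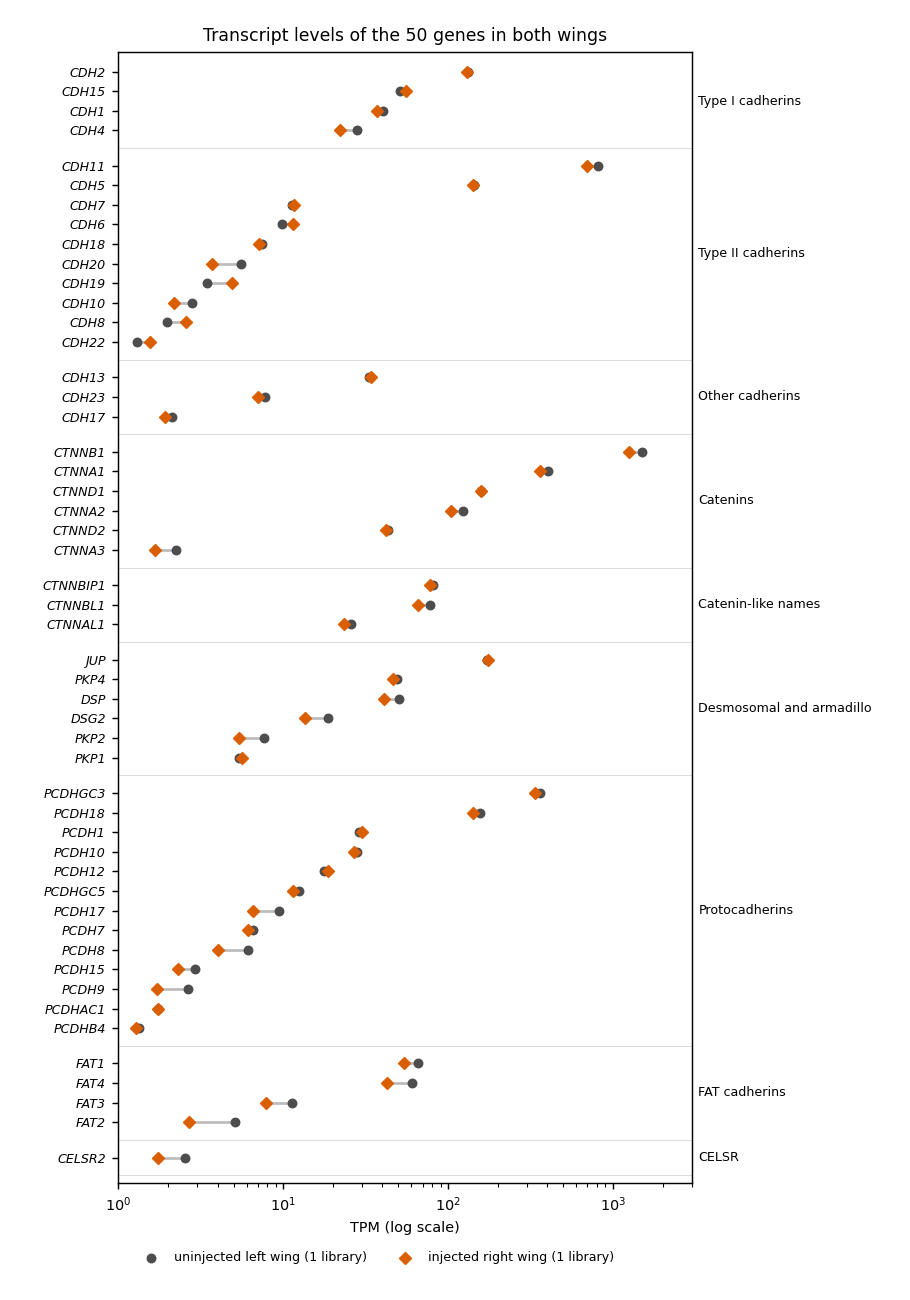
TPM (log axis) of each of the 50 genes in the uninjected left wing (grey circles) and the injected right wing (orange diamonds), 1 library each, grouped by class and ordered by mean level. Levels run from about 1.31 TPM (mean of PCDHB4) to 1374 TPM (mean of CTNNB1), and the widest gaps between wings are at low levels, as for FAT2 at 5.12 and 2.69 TPM.

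The type I classical cadherins, which carry the strongest homophilic adhesion, were all within 1.5-fold. CDH2 (ENSGALG00000015132), N-cadherin of mesenchyme, nerve and muscle, stood at 132 TPM uninjected and 131 TPM injected, a log2 ratio of −0.01. This was the smallest difference among the 4 genes of the class and the highest level. CDH15, M-cadherin of muscle precursors and myotubes, was at 51.3 TPM uninjected and 55.6 TPM injected (0.12).

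CDH1 (ENSGALG00000000608), E-cadherin of the ectoderm, was at 40.3 TPM uninjected and 37.3 TPM injected (−0.11). CDH4, R-cadherin, known from nerve, retina and muscle, had the lowest ratio of the class, with 27.9 TPM uninjected and 22.3 TPM injected (−0.33). The class median of −0.06 lay close to that of all genes. N-cadherin transcript exceeded E-cadherin transcript 3.27-fold in the uninjected and 3.51-fold in the injected wing.

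Type II cadherins ran from an abundant mesenchymal gene to neural genes near the minimum. CDH11 (ENSGALG00000039985), the cadherin of loose mesenchyme and osteoblasts, was at 814 TPM uninjected and 696 TPM injected (−0.23). It supplied 64.9% of the summed type I and type II cadherin transcript in the uninjected wing and 61.7% in the injected wing. CDH11 stood 6.18-fold above CDH2 in the uninjected and 5.31-fold above it in the injected wing. It ranked 152 by level among all genes compared in the uninjected wing and 174 in the injected wing.

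CDH5 (ENSGALG00000032349), VE-cadherin of endothelium, came next at 144 TPM uninjected and 141 TPM injected (−0.03). Markers of endothelium other than CDH5 were level as well. Of 6 listed, 5 were matched and compared, none was called, their median was −0.01, and their summed level was 203 TPM uninjected and 199 TPM injected. The endothelial factor gene ERG was at 72.0 and 71.4 TPM (−0.01), and the adhesion gene PECAM1 at 56.3 and 50.3 TPM (−0.16).

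The remaining 8 type II genes had means under 12 TPM, where ratios of all genes spread more. CDH7, known from migrating neural crest, was at 11.4 TPM uninjected and 11.6 TPM injected (0.03). CDH6, which marks chick neural crest before it migrates, was at 9.89 TPM uninjected and 11.5 TPM injected (0.21). CDH18, a neural cadherin, was at 7.41 and 7.18 TPM in the same order (−0.05). None of these 3 genes was near the 1.5-fold rule.

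CDH20 and CDH19 stood at opposite ends of the class. CDH20, known in chick from motor neurons, was at 5.53 TPM uninjected and 3.68 TPM injected (−0.57), just inside the rule. Without the 0.1 TPM added to each value, its injected level was 0.6662 of the uninjected, just past 1.5-fold. CDH19, a cadherin of neural crest and Schwann cell precursors, was at 3.44 TPM uninjected and 4.86 TPM injected, and its ratio of 0.49 was the highest of the 50 genes. Markers of Schwann cells and nerve included 4 called higher of 8 compared, beside 2.23% of all genes. Among the 4 was SOX10 at 15.6 TPM uninjected and 23.8 TPM injected (0.61). STMN2, a neuronal gene, was at 7.06 and 11.6 TPM (0.71), while TUBB3, the most abundant of the list, was at 96.9 and 92.5 TPM (−0.07). The markers ERBB3, FOXD3 and NEFM were not called either, with ratios of 0.07, −0.04 and −0.42. The summed level of that list was 165 TPM uninjected and 179 TPM injected, with no marker at 0, and its part in the CDH19 value was not tested.

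The neural type II cadherins CDH10, CDH8 and CDH22 had means under 3 TPM. CDH10 was at 2.81 TPM uninjected and 2.16 TPM injected (−0.36). CDH8 was at 1.97 and 2.57 TPM (0.37), and CDH22 at 1.29 and 1.55 TPM (0.24). Ratios of the class were thus split, 5 below and 5 above 0, with a median of 0.00.

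Cadherins that lack the classical catenin-binding tail were level between wings. CDH13, T-cadherin, which is held by a lipid anchor and known from vessels and nerve, was at 33.2 TPM uninjected and 33.9 TPM injected (0.03). CDH23, a component of hair cell tip links, was at 7.72 and 7.07 TPM (−0.12), and CDH17, known from intestinal epithelium, at 2.12 and 1.92 TPM (−0.14).

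**Figure D2:**
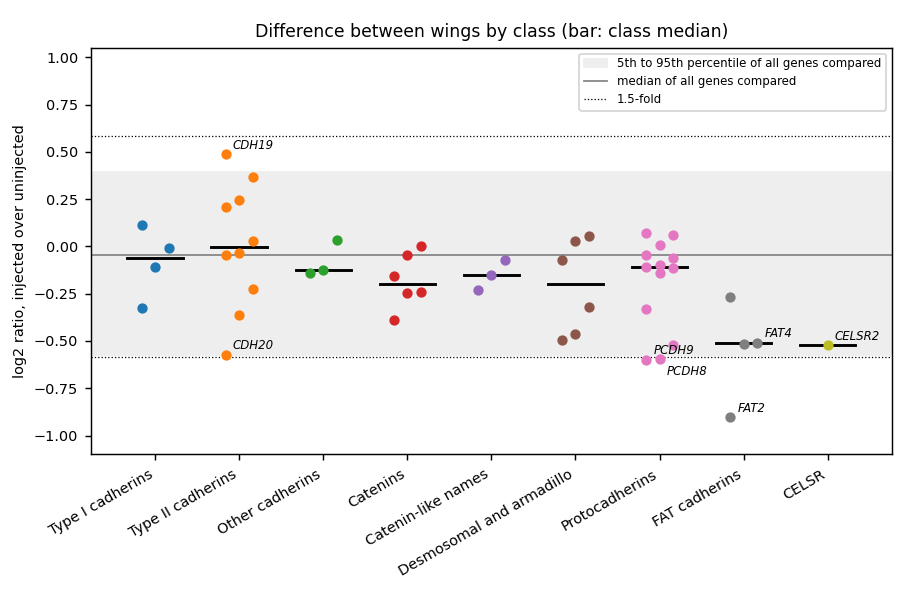
Log2 ratio of injected over uninjected for each of the 50 genes by class (points), with class medians (black bars), the median (grey line) and 5th to 95th percentile range (grey band) of all genes compared and the 1.5-fold rule (dotted). FAT2 (−0.90), PCDH9 and PCDH8 (both −0.60) lie beyond the lower dotted line, no point lies beyond the upper one, and the 4 FAT genes have a median of −0.51.

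Catenins were the most abundant class, and the 6 genes lay within 1.5-fold. CTNNB1 (ENSGALG00000037203), beta-catenin, was at 1491 TPM uninjected and 1256 TPM injected, a log2 ratio of −0.25. It was the highest of the 50 genes in each wing and ranked 85 among all genes in the uninjected and 110 in the injected wing. Among the 1817 genes at 100 TPM or above its ratio lay at percentile 7.32.

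Alpha-catenins link this complex to actin. CTNNA1, the widely expressed form, was at 405 TPM uninjected and 363 TPM injected (−0.16). CTNNA2, known mostly from nervous tissue, was at 123 TPM uninjected and 104 TPM injected (−0.24). The third form, CTNNA3, known from heart and testis in mammals, was at 2.22 TPM uninjected and 1.67 TPM injected (−0.39). All 3 alpha-catenin ratios were below 0.

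The p120 group was nearly level. CTNND1, p120-catenin, was at 158 TPM in each wing, with a log2 ratio of 0.00. CTNND2, delta-catenin of neurons, was at 43.4 TPM uninjected and 42.1 TPM injected (−0.04). Beta-catenin and plakoglobin together stood at 3.14 times the summed alpha-catenins in the uninjected and 3.06 times in the injected wing, so this balance was close between wings. Relative to the type I and type II cadherins, the same sum was 1.33-fold in the uninjected and 1.27-fold in the injected wing.

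Another 3 genes carry catenin names without being core junction proteins. CTNNBIP1, which blocks the binding of beta-catenin to TCF factors, was at 81.5 TPM uninjected and 77.5 TPM injected (−0.07). CTNNBL1, a protein associated with the spliceosome, was at 77.5 TPM uninjected and 66.0 TPM injected (−0.23). CTNNAL1, alpha-catulin, a relative of alpha-catenin, was at 25.8 and 23.3 TPM (−0.15). Without these 3, the median of the other 47 genes was −0.11.

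Desmosomal and related armadillo genes split by gene rather than moving together. JUP (ENSGALG00000017414), plakoglobin, which serves adherens junctions as well as desmosomes, was at 171 TPM uninjected and 175 TPM injected (0.03). Beta-catenin transcript was 8.70-fold above plakoglobin in the uninjected and 7.17-fold above it in the injected wing. PKP4, a plakophilin of the p120 family that also sits at adherens junctions, was at 49.0 and 46.5 TPM (−0.07).

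The genes more restricted to desmosomes had lower ratios. DSP, desmoplakin, the link to keratin, was at 50.7 TPM uninjected and 40.6 TPM injected (−0.32). DSG2, a desmosomal cadherin, was at 18.6 TPM uninjected and 13.5 TPM injected (−0.46). PKP2, the plakophilin of simple epithelia and heart, was at 7.62 and 5.38 TPM (−0.50). PKP1, known in mammals from stratified epidermis, was the exception at 5.37 TPM uninjected and 5.59 TPM injected (0.06).

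Epithelial markers lay on the same side of 0 as DSP, DSG2 and PKP2. Of 8 listed, 5 were matched and compared. All 5 had ratios below 0, beside 59.7% of all genes, with a median of −0.30 and none at 0 TPM. Of the 5, KRT18 (−0.05) and TP63 lay close to the all-gene median of −0.04. Their summed level was 433 TPM uninjected and 358 TPM injected. EPCAM, a surface protein of epithelia, was at 106 TPM uninjected and 82.7 TPM injected (−0.36), and the splicing regulator gene ESRP1, the only call of the list, at 7.22 and 4.34 TPM (−0.72). TP63, the regulator of epidermal stratification, was at 35.3 and 35.0 TPM (−0.01), and CDH1 had a ratio of −0.11. The part of epithelial content in the desmosomal values was not tested.

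Keratin and desmosome partners had ratios from near the all-gene median of −0.04 downward. All 8 of the keratin and desmosome partners compared had ratios below 0, beside 59.7% of all genes. Their ratios ran from −0.38 to −0.04, with none called. KRT14, a basal epidermal keratin, was at 156 TPM uninjected and 121 TPM injected (−0.37). KRT19, which is also in the epithelial list, was at 251 and 203 TPM (−0.30). KRT18, a keratin of simple epithelia that is in the epithelial list too, was at 33.5 and 32.3 TPM (−0.05). The most abundant of the list, VIM, which encodes the mesenchymal filament vimentin, was at 2901 and 2824 TPM (−0.04), and the muscle filament gene DES at 241 and 224 TPM (−0.10).

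Protocadherins were the largest class, with 13 genes and 2 of the 3 calls. These calls were PCDH9 at a mean of 2.18 TPM and PCDH8 at 5.06 TPM. Over all genes 4.79% were called lower, with 15.5% at 1 to 5 TPM and 5.09% at 5 to 20 TPM. PCDHGC3 (ENSGALG00000028565) of the gamma cluster was the most abundant, at 361 TPM uninjected and 338 TPM injected (−0.10). PCDHGC5 of the same cluster was at 12.4 and 11.5 TPM (−0.11). Protocadherins of the alpha and gamma clusters share constant exons, so the split of reads between PCDHGC3 and PCDHGC5, and the value of PCDHAC1, are uncertain. The low value of PCDHB4 is uncertain as well. PCDHAC1 was at 1.74 TPM in each wing (0.01) and PCDHB4 at 1.33 and 1.29 TPM (−0.05).

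The delta-2 group, which regulates cell movement and actin, held both level and lower genes. PCDH18 was at 156 TPM uninjected and 141 TPM injected (−0.14), and with PCDHGC3 it supplied 81.4% of the class's transcript in the uninjected and 81.2% in the injected wing. PCDH10 was at 28.1 and 27.0 TPM (−0.06). PCDH17 was at 9.43 TPM uninjected and 6.55 TPM injected (−0.52), inside the rule.

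PCDH8 (ENSGALG00000036258), paraxial protocadherin, known from somite segmentation, was called lower, at 6.11 TPM uninjected and 4.01 TPM injected (−0.60). This call was marginal: under each of 3 other scalings of the libraries the ratio was −0.55 and no longer passed. PCDH19, listed in the table as Pcdh19 and so outside the symbol rule, is another delta-2 gene and was at 25.4 TPM uninjected and 27.1 TPM injected (0.10).

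In the delta-1 group, PCDH9 (ENSGALG00000016908) was called lower, at 2.64 TPM uninjected and 1.71 TPM injected (−0.60). Its call was lost under the 3 other scalings too, at −0.56 to −0.55, and with a pseudocount of 1 TPM it was −0.43. PCDH1 was at 28.9 TPM uninjected and 30.1 TPM injected (0.06), and PCDH7 was at 6.60 and 6.11 TPM (−0.11). Both lay well inside the rule.

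Outside these groups, PCDH12, a protocadherin of endothelium, was at 17.8 TPM uninjected and 18.7 TPM injected (0.07). Like CDH5 it differed little between wings. PCDH15, the tip link partner of CDH23, was at 2.93 and 2.30 TPM (−0.33).

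Several of these genes neighbour each other in the RefSeq gene table of the GRCg7b assembly, used for gene order and older symbols, in which 49 of the 50 symbols were found. PCDH8 and PCDH17 have 2 protein-coding genes between them and PCDH17 and PCDH9 have 4, and these neighbours had ratios of −0.60, −0.52 and −0.60. Other pairs at like spacing were mixed. DSG2 at −0.46 and CDH2 at −0.01 have 2 genes between them, as do CDH6 at 0.21 and CDH10 at −0.36. CDH6 and CDH20 at −0.57 have 3. CTNNA3 at −0.39 and PCDH15 at −0.33 have 5. Other adjacent genes had both like and unlike ratios. PCDHGC3 at −0.10 lies next to PCDHGC5 at −0.11, PCDH18 at −0.14 next to PCDH10 at −0.06, and PCDH1 at 0.06 has 1 gene between it and PCDH12 at 0.07. In contrast, CDH7 at 0.03 lies next to CDH19 at 0.49, and CDH11 at −0.23 lies next to both CDH5 at −0.03 and CDH8 at 0.37.

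The FAT cadherins had the lowest ratios of any class with more than 1 gene. All 4 lay below 0, beside 59.7% of all genes. FAT2 (ENSGALG00000004320), known in mammals from epidermis and cerebellum, was at 5.12 TPM uninjected and 2.69 TPM injected. Its log2 ratio of −0.90 was the lowest of the 50 genes. The call held under each other scaling and pseudocount and with the trend over abundance removed, at values between −0.93 and −0.73, but not under a 2-fold rule.

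FAT4 (ENSGALG00000011823), the receptor for Dachsous in mesenchyme and epithelia, was at 60.5 TPM uninjected and 42.5 TPM injected (−0.51). FAT4 was within the rule, but at its level few genes differed so far: its ratio lay at percentile 2.13 of the 6064 genes that averaged 20 to 100 TPM. FAT3, known from neurons and muscle, was at 11.3 TPM uninjected and 7.87 TPM injected (−0.51). FAT1, which acts on actin and cell contacts, was at 65.4 TPM uninjected and 54.2 TPM injected (−0.27).

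The class median was −0.51, and the summed FAT transcript was 142 TPM uninjected and 107 TPM injected. CELSR2, a homologue of the fly planar polarity cadherin Flamingo, was the only CELSR gene in the comparison, at 2.55 TPM uninjected and 1.75 TPM injected (−0.52). No gene carried the symbol CELSR1, CELSR3, DCHS1 or DCHS2, so these were not analysed here. FAT and CELSR transcripts are very long, and transcript length was not analysed here.

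**Figure D3:**
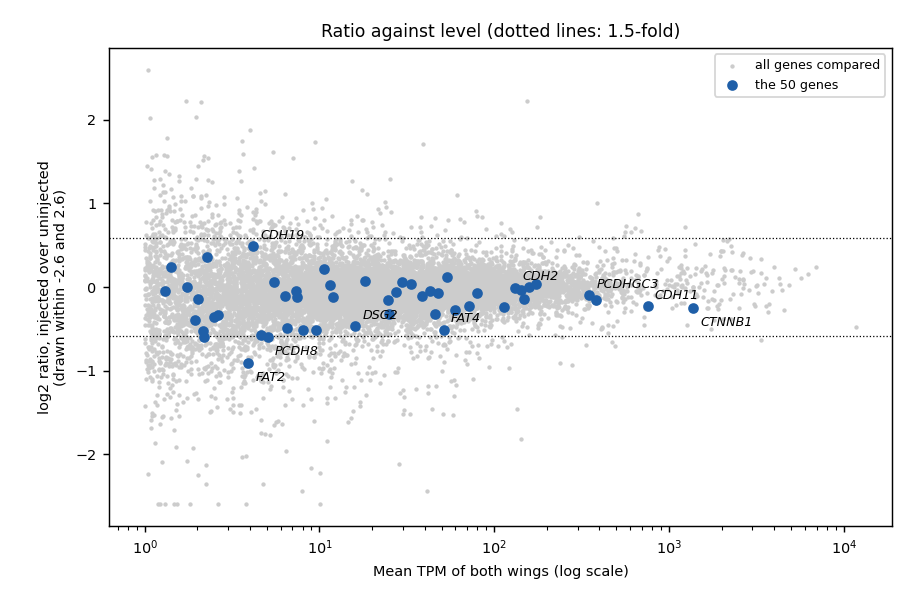
Log2 ratio of injected over uninjected against mean TPM (log axis) for all genes compared (grey, values past the axis drawn at its edge) and the 50 adhesion genes (blue), with the 1.5-fold rule dotted. Grey points spread more at low levels, where FAT2 (−0.90) lies, while FAT4 (−0.51) lies near the lower edge of the genes at its own level and CDH2 (−0.01) near the middle.

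Because ratios spread more at low levels, the calls were read against genes of like abundance. Of the 13 genes that averaged 1 to 5 TPM, 2 were called lower (FAT2 and PCDH9), where 15.5% of all 2431 genes at that level were. Among the 13 genes at 5 to 20 TPM, 1 was called lower (PCDH8), against 5.09% of 3634 genes. None of 14 genes at 20 to 100 TPM was called lower, against 1.52% of 6064. Nor was any of 10 genes at 100 TPM or above, against 0.826% of 1817. Calls among the adhesion genes were thus near the background at each level.

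At each level the adhesion genes had a lower median than all genes, by an amount that varied. At 1 to 5 TPM the median log2 ratio was −0.33 for the adhesion genes and −0.10 for all genes. At 5 to 20 TPM these values were −0.11 and −0.07, and at 20 to 100 TPM they were −0.09 and −0.04. In the group at 100 TPM or above, the adhesion genes had a median of −0.12 with 8 of 10 below 0, where all genes had a median of 0.000156 and 49.97% below 0. Within their own level, PCDH8 and FAT4 alone of the 50 genes lay under the 5th percentile, where 5% of all genes lie by definition. PCDH8, at percentile 4.87, had a mean of 5.06 TPM, at the lower edge of its group. PCDH9, with a like ratio, lay at percentile 14.8 of the group at 1 to 5 TPM, so the place of PCDH8 depends on that edge. None of the 50 lay above the 95th.

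At the threshold itself, the 3 genes just inside were PCDHB4 (mean 1.31 TPM), CDH22 (1.42 TPM) and PCDHAC1 (1.74 TPM). The 2 outside lay well under it. CDH9, a neural type II cadherin, was at 0.0587 TPM uninjected and 0.654 TPM injected (mean 0.356 TPM). PCDHA4 was at 0.0434 and 0.00744 TPM (mean 0.0254 TPM).

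Other junction genes were described with 8 lists of partners, 110 genes compared in all. Of these, 1 was called higher and 0 lower, with a median log2 ratio of −0.02 and 59.1% below 0. Nectins and other adherens junction partners, which dock to cadherin complexes, had 0 calls among 21 genes and a median of −0.06. VCL, vinculin, which binds alpha-catenin under tension, was at 235 TPM uninjected and 202 TPM injected (−0.22), and LIMA1, which links alpha-catenin to actin, at 195 and 184 TPM (−0.09). CTNNA1, between them, had a ratio of −0.16.

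None of 16 genes of beta-catenin turnover and transcription was called, and the list median was 0.01, with ratios from −0.22 for APC, a scaffold of beta-catenin breakdown, to 0.52. The highest was TCF7L2, a DNA-binding partner of beta-catenin, at 29.6 TPM uninjected and 42.4 TPM injected. CSNK1A1, the priming kinase of beta-catenin breakdown, listed in the table as CSNK1A1L, was at 322 TPM uninjected and 329 TPM injected (0.03). LEF1, of the same family as TCF7L2, was at 236 and 233 TPM (−0.02), beside −0.25 for CTNNB1 itself.

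Partners of the giant cadherins did not follow FAT2 and FAT4 as a group. The list of FAT and Dachsous effectors and Hippo pathway genes had a median of 0.03 over 22 genes, 10 below and 12 above 0. Of these, AMOTL2 was at 51.9 TPM uninjected and 38.6 TPM injected (−0.43). CCN2, listed in the table as CTGF, was at 73.5 and 60.7 TPM (−0.27), and CCN1, listed as CYR61, at 33.9 and 37.5 TPM (0.15). LIX1, whose fly homologue belongs to the FAT pathway, was the only call among all partners, at 4.73 TPM uninjected and 7.77 TPM injected (0.71). FJX1, whose fly homologue Four-jointed phosphorylates Fat and Dachsous, was at 8.36 and 5.66 TPM (−0.56). YAP1, the transcriptional effector of the Hippo pathway, was at 281 TPM uninjected and 292 TPM injected (0.05), and NF2, an upstream regulator, at 180 and 190 TPM (0.08).

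Among 15 planar cell polarity genes that work with CELSR proteins, 0 were called and the median was −0.01. PTK7, a polarity coreceptor, was at 339 TPM uninjected and 329 TPM injected (−0.04), and WNT11, a ligand of this pathway, at 228 and 272 TPM (0.25). WNT5A, another ligand, had the lowest ratio of the list, at 104 TPM uninjected and 81.6 TPM injected (−0.35). ANKRD6 had the highest (0.42), and 9 ratios lay below and 6 above 0. Of 9 listed transcription factors known to repress CDH1, 7 were matched and compared, all but SNAI2 and TCF4, with 0 calls and a median of 0.03. The most abundant were TCF3 at 221 and 235 TPM (0.09) and TWIST2 at 219 and 223 TPM (0.03), beside −0.11 for CDH1. Ratios of the list were mixed, 2 below and 5 above 0, from −0.46 for FOXC2 to 0.22 for TWIST1. SNAI1 was at 60.3 TPM uninjected and 51.2 TPM injected (−0.24). A relation of these genes to the CDH1 value was not tested.

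Genes of cadherin cleavage and trafficking also had 0 calls, among 16, with a median of −0.00. RAB11A, a recycling GTPase that returns cadherins to the surface, was at 128 TPM uninjected and 136 TPM injected (0.09). ADAM10, a protease that sheds cadherin ectodomains, was at 109 and 111 TPM (0.02). Cadherin superfamily genes outside the 50 had 0 calls among 5 and a median of −0.21. CLSTN1, a calsyntenin with cadherin repeats, was at 299 TPM uninjected and 279 TPM injected (−0.10), CLSTN3 at 57.0 and 59.0 TPM (0.05) and CLSTN2 at 35.5 and 27.4 TPM (−0.37).

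**Figure D4:**
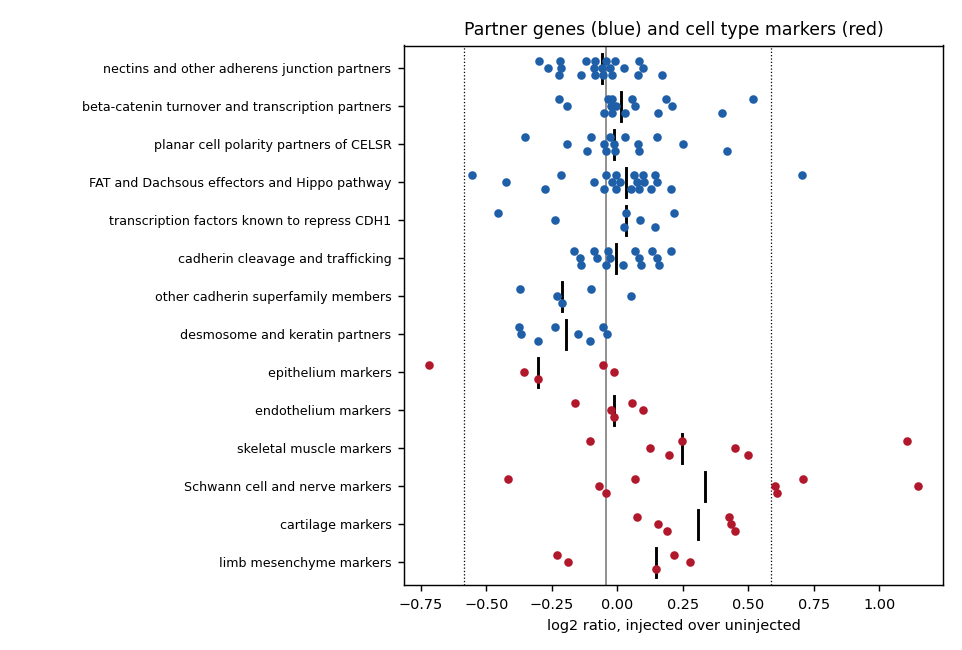
Log2 ratio of injected over uninjected for each gene of the 8 partner lists (blue) and 6 cell type marker lists (red), with list medians (black bars), the median of all genes compared (grey line) and the 1.5-fold rule (dotted). Partner lists centre between −0.21 and 0.03, the epithelial markers at −0.30, and the muscle, cartilage and Schwann cell and nerve markers at 0.25, 0.31 and 0.34.

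Marker levels of other tissues were set beside cadherins known from those tissues. Over all genes compared, 59.7% had ratios below 0 and 2.23% were called higher. The 7 skeletal muscle markers had a median of 0.25 and a summed level of 3382 TPM uninjected and 4017 TPM injected. Of the 7, 6 had ratios above 0, all but DES (−0.10), and 1 was called higher. That call was MYF5, which commits cells to the muscle lineage, at 11.9 and 25.7 TPM (1.11); ACTC1, the most abundant, had a ratio of 0.20 and TNNT2 one of 0.45. The muscle cadherin CDH15 had a ratio of 0.12. All 6 cartilage markers had ratios above 0, with a median of 0.31 and a summed level of 1959 TPM uninjected and 2370 TPM injected, with COL2A1 at 0.19 and COL9A1 at 0.43. Beside these, the ratio was −0.01 for CDH2 and −0.23 for CDH11. The 5 limb mesenchyme markers were mixed, with 2 ratios below and 3 above 0, among them PDGFRA at −0.19 and MEOX2 at 0.15. No compared marker of these lists was at 0, and their part in the cadherin values was not tested.

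**Figure D5:**
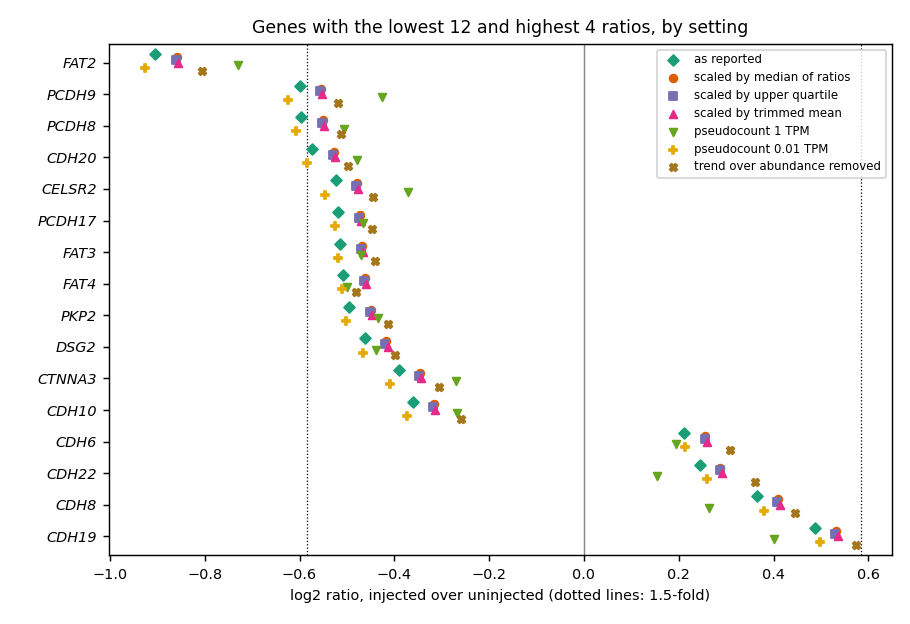
Log2 ratio of the 12 genes with the lowest and the 4 with the highest ratios (rows) under the reported setting and 6 other scalings, pseudocounts or corrections (symbols), with the 1.5-fold rule dotted. FAT2 stays beyond the rule at each symbol shown, from −0.93 to −0.73, PCDH9 and PCDH8 cross it, and CDH19 approaches 1.5-fold from below without passing it.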

How the data were processed

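The 2 libraries were mRNA sequencing of the wings of 1 chick embryo. Per the labels' protocols, column-purified, DNase-treated RNA went into an NEBNext Ultra library that was sequenced in pairs. TPM values were used as the authors deposited them. HISAT2 2.2.1, StringTie 2.1.7 and the build GRCg6a are named, without roles, per the submitters' processing notes; for annotation and strandedness no source used here has an entry. TPM keeps no depth and, being scaled within a library, lowers all genes when abundant ones rise. The other deposited table, with 2 columns whose names match neither sample's title, was not used.

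Of 24356 rows, 1313 short RNAs were left out. Genes were compared if above 0 in both libraries with a mean of at least 1 TPM; 13946 were. Ratios used a pseudocount of 0.1 TPM, which understates the change of low genes. Calls needed 1.5-fold. The steps were tested on simulated data.

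The 50 genes and all lists were chosen with earlier results of these data known. The rule for names took every called gene and up to 4 per class; here all 50 are named. Of other lists it took calls (up to 3 in each direction) and the 2 most abundant genes. TP63, KRT14, KRT19 among keratin partners, KRT18, ERBB3, FOXD3, NEFM, APC, TCF7L2, FJX1 and CLSTN2 were added after their values were seen. So were FOXC2, SNAI1, TWIST1 among repressors of CDH1, DES among muscle markers, AMOTL2, CCN1, CCN2, WNT5A and ANKRD6. A gene that the rule names is not reported here. Older symbols came from the GRCg7b RefSeq table. Alternatives were 3 scalings, 2 minimums, 2 pseudocounts, a 2-fold rule, removal of the trend over abundance (running median of 501 genes) and rows with symbols only. Computations used Python 3.11.15, pandas 2.3.3 and NumPy 2.4.6; matplotlib 3.10.9 drew the figures.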

Additional observations from a re-analysis of the deposited data

How the results depend on the processing

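The 3 lower calls among the 50 genes became 1 (FAT2) under each of 3 other scalings, with a pseudocount of 1 TPM and with the trend over abundance removed, 1 (PCDH8, as FAT2 and PCDH9 lie under the minimum) at a minimum of 5 TPM, and 0 under a 2-fold rule. Classes holding a call went from 2 to 1 in the same settings and to 0 under the 2-fold rule. Without a minimum, CDH9 was added as 1 higher call. The median of −0.12 became −0.064 with the trend removed, where that of all genes was 0; under the 3 scalings it lay between −0.08 and −0.07, with that of all genes between 0.00004 and 0.0053. It stayed below 0 in each setting run. The 1 higher call among partners became 0 under the 2-fold rule.

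Over all genes, 311 higher and 668 lower became 831 and 1297 without a minimum, 122 and 292 at 5 TPM, 186 and 432 with a pseudocount of 1 TPM, 70 and 207 at 2-fold, and 186 and 353 with symbols only. Genes higher were 31.8% of calls, and 45.1% (433 and 527) with the trend removed. Of 537 values of single genes under alternatives, 13 lost a call and 0 changed sign while called. Only FAT2, PCDH8 and PCDH9 had a call to lose. The minimums, the 2-fold rule and the limit to symbols leave each ratio as it was. Some uncalled genes did change sign under the 3 other scalings. CDH2 went from −0.01 to 0.04, and CDH5 from −0.03 to between 0.01 and 0.02. Matching symbols in any letter case, an alternative added after the data were examined, gave the same 3 calls. The cause of these shifts was not tested beyond the settings themselves. No paired analysis was possible because each group has 1 library. Depth is unknown, so low values such as that of PCDH9 carry an error that could not be sized.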
